A study of Mus musculus with 3 samples.

Results

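Amacrine cells of the newborn mouse retina were examined in an allelic series of *Sstr2*, the gene of a somatostatin receptor. The members were the cells that the deposited annotation of the postnatal day 0 (P0) library calls amacrine cells, 1013 of its 5706 cells and of 14611 cells in the whole series. All retinas were processed as 1 multiplexed single-cell library (MULTI-seq, in which lipid-anchored barcodes mark each sample before droplet capture), and the deposited metadata assigned each cell to a genotype and a retina sample. The *Sstr2*+/+ sample held 218 amacrine cells, the *Sstr2*+/- samples held 160 and 232, and the *Sstr2*-/- samples held 184 and 219. Values below follow this order and are called retinas, although how many retinas went into a sample was not stated. The allele is a constitutive deletion that came from a heterozygous breeding pair of the strain C57BL/6NCrl-Sstr2em1(IMPC)Mbp/Mmucd outbred to CD1. The pups came from intercrosses of heterozygous offspring, so they were of mixed background. Whether strain sequence near *Sstr2* differed with genotype was not examined. With 1 *Sstr2*+/+ retina the spread of that genotype could not be measured, and it was assumed to vary like the heterozygous and knockout pairs.

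Raw counts of unique molecular identifiers (UMIs) were summed over the amacrine cells of each retina, which gave 1742426 UMIs for the *Sstr2*+/+ retina, 1429941 and 1864496 for the *Sstr2*+/- retinas and 1476324 and 1773385 for the *Sstr2*-/- retinas. An amacrine cell had a median of 7332 UMIs, and the medians of the retinas ran from 7061 to 7508. Levels are given as CPM, which is the count after each amacrine sum was scaled to 1000000 UMIs. They rest on 3′ tags and were not scaled to transcript length, so they are compared between retinas or cell types for 1 gene and not between genes. *Xist*, the RNA of the inactive X chromosome, was high in the first heterozygous retina (1661 CPM) and the second knockout retina (1712 CPM) and lay at 19.5, 2.1 and 14.2 CPM in the *Sstr2*+/+, second heterozygous and first knockout retinas. Genotype and sex were therefore crossed among 4 of the 5 retinas, but the only *Sstr2*+/+ retina was *Xist*-low. Among cell barcodes, 7 were shared with the P14 library, of which 2 belonged to amacrine cells, and 9 with the explant library, none of them in amacrine cells.

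Amacrine cells are the inhibitory interneurons of the inner retina. They arise from progenitors through the bHLH factor Ptf1a, which also directs the horizontal cell fate, and most release GABA or glycine onto bipolar, ganglion and other amacrine cells. AP-2 factors (Tfap2a, Tfap2b) mark postmitotic amacrine and horizontal cells, while GAD67 (*Gad1*) makes GABA and the vesicular transporter VGAT (*Slc32a1*) loads GABA and glycine into synaptic vesicles. Starburst cells, a cholinergic amacrine type, are marked by *Isl1*, *Sox2* and the acetylcholine transporter *Slc18a3*. Sstr2 is a Gi-coupled receptor, and its ligand somatostatin inhibits neurons.

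The promoters of 3 of the 4 genes that mark these cells are shown because they carry the identity described next. Each run holds 250 bases before to 50 bases after the annotated start (RefSeq, GRCm38.p6, plus strand), and capitals mark CANNTG, the E-box core that bHLH factors such as Ptf1a can bind.
Tfap2b, chr1:19211804-19212103: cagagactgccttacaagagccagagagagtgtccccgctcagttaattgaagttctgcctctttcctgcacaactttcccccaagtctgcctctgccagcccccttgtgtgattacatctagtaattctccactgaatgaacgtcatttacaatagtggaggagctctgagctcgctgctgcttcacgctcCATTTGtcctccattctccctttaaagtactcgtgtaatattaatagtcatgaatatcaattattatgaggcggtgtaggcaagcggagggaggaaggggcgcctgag
Gad1, chr2:70561879-70562178: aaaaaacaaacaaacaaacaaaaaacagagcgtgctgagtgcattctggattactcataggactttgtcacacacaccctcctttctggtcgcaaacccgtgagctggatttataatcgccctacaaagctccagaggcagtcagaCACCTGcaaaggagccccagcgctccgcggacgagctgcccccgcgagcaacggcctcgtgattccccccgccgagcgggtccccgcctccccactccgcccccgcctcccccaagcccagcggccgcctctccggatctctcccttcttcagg
Slc32a1, chr2:158610508-158610807: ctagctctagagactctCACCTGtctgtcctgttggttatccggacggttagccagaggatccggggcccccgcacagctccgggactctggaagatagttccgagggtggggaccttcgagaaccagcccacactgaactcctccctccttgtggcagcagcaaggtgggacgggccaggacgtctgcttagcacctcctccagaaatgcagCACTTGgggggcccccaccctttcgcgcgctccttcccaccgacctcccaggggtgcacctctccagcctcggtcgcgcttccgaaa
CANNTG, which reads the same on both strands, occurred in 10 of the 14 genes with the highest ratio of amacrine to other cells that had a promoter entry, and in 72.3% of all 32851 promoters. The AP-2 core GCCNNNGGC, also the same on both strands and able to overlap CANNTG, was in 0 of these 14 and in 16.6% of all promoters. A match is a description of letters and not of a bound site.

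As a class, the amacrine cells of every retina carried all 4 markers, which were close to absent elsewhere, although not every subgroup did: the 160 cells of the second subcluster below had no *Gad1* UMI, and 15 and 43 cells also carried horizontal cell and photoreceptor genes. *Tfap2b* (chromosome 1, 19208914 to 19238576, GRCm38) lay at 995 CPM in the *Sstr2*+/+ retina, 1056 and 997 in the *Sstr2*+/- and 1180 and 751 in the knockout retinas, against 9.0 CPM in all other P0 cells together. It was detected in 72.6% of amacrine cells (median 7332 UMIs) and in 1.43% of primary progenitors (median 8759 UMIs), the type taken here as background. *Tfap2a*, its paralog on chromosome 13, lay between 288 and 328 CPM in the 5 retinas and at 3.6 CPM elsewhere, with detection in 70.8% of amacrine cells and 0.679% of progenitors. *Gad1* was at 64.3, 58.0, 60.6, 49.4 and 41.7 CPM and *Slc32a1* at 65 to 86 CPM, with 0.2 and 0.5 CPM in other cells. They were found in 26.1% and 39.3% of amacrine cells and in 0.143% of progenitors each. The 4 markers summed to 1419 CPM in amacrine cells and 13.4 CPM in the rest. Because the cells were clustered on these genes before annotation, the contrast is a description and carries no test.

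**Figure D1:**
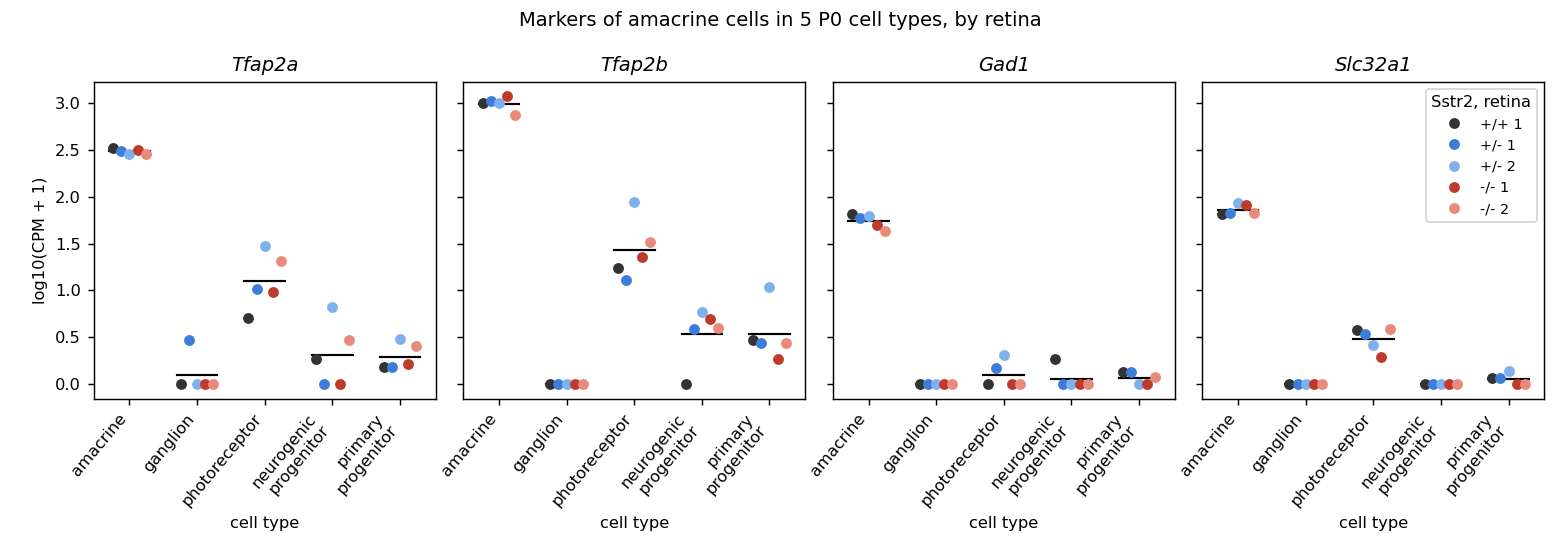
Level of the 4 amacrine marker genes in each P0 cell type, on a log10(CPM + 1) axis. Each point is 1 retina and each line the mean of the log values; the 5 amacrine points lie above every other type for all 4 genes.

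The transcription factors of the amacrine lineage were unevenly carried. Of 31 fate factors measured, 15 were at least 2-fold above the rest of the retina and 7 at least 2-fold below it. The share of all genes past 2-fold is not given here, so this count and those of the lists below are descriptions. Pax6, the pan-amacrine and progenitor homeodomain factor, was found in 99.1% of amacrine cells, and *Meis2*, a TALE homeodomain gene, stood at 1862 CPM and was found in 75.4%. *Ptf1a* was at 143 CPM in 26.3% of the cells and *Prdm13*, a zinc finger gene downstream of Ptf1a, at 208 CPM in 36.9%, both nearly even across the retinas (128 to 166 and 200 to 220 CPM). *Zfhx3*, a large homeobox zinc finger gene, was at 721 CPM in the *Sstr2*+/+, 596 and 641 in the *Sstr2*+/- and 835 and 904 in the knockout retinas, against 33.0 in other cells. *Foxn4*, which acts in progenitors before Ptf1a, was at 0.8 CPM and *Neurod6*, a marker of the cells that use neither GABA nor glycine, at 0.5 CPM. *Neurod4* had the same level, 314 CPM, in amacrine and in all other cells.

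The 15 genes with the highest ratio of amacrine to other P0 cells held 5 of known fate or transmitter function (*Tfap2b*, *Tfap2a*, *Prdm13*, *Gad1*, *Slc32a1*) and the LIM factor *Lhx9* (187 CPM). The others were *Rd3l* (265 CPM), *Crabp1*, a retinoic acid binding protein (1035), the synaptic organizers *C1ql2* (107) and *Cbln2* (97), the peptide gene *Pyy* (79.5), the chemokine *Cxcl14* (290), the potassium channel *Kcna5* (59.6), the bHLH gene *Nhlh2* (295) and the AMPA receptor accessory gene *Cacng3* (73.5). All *Pyy* UMIs came from 8 cells.

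GABA genes were on, and the glycine transporter genes gave few UMIs. All 6 genes of GABA synthesis, loading, uptake and breakdown were at least 2-fold above the rest. *Gad2*, which encodes GAD65, lay at 336 CPM in the *Sstr2*+/+, 273 and 258 in the *Sstr2*+/- and 282 and 324 in the knockout retinas, against 30.5 elsewhere. The glycine transporters gave 50 UMIs of *Slc6a9* in 4.54% of the amacrine cells and 21 UMIs of *Slc6a5* in 1.97%. *Slc6a9* was found in 10.7% of photoreceptors and 0.501% of progenitors, so its share in amacrine cells was below that of a photoreceptor with fewer UMIs (median 4534.5). *Slc6a5*, though scarce, was at 2.5 CPM in amacrine cells against 0.02 in other cells, and was found in 0.0876% of photoreceptors and 0% of progenitors.

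Receptor and synapse genes were compared with the rest of the library, which is mostly progenitors and photoreceptors, and with ganglion cells. All 9 glutamate receptor subunits measured were at least 2-fold above the rest, led by the AMPA subunit *Gria2* (347 CPM against 21.4), and so were 9 of 13 GABA and glycine receptor subunits, among them *Gabra2* (115 against 6.8) and *Glra2* (47.2 against 2.1). Of 14 genes of the synapse and vesicle release, 8 passed 2-fold, from the adhesion gene *Nrxn3* (332 against 17.7) to the calcium sensor *Syt1* (375 against 92.5), while the SNARE gene *Snap25* did not (140 against 114). Ganglion cells were at comparable or higher sums, with 541 CPM for the glutamate receptor list against 628 in amacrine cells, 358 against 318 for the GABA and glycine receptors and 2134 against 1471 for the synapse list, and with *Gria2* at 288 CPM. The chloride extruder KCC2 (*Slc12a5*), which makes GABA hyperpolarizing in mature neurons, was at 47.4 CPM against 4.3, and the chloride importer NKCC1 (*Slc12a2*) at 13.8 against 23.7. Among neuropeptides *Npy* ran from 86 CPM in the *Sstr2*+/+ retina to 16 in the second knockout retina, whereas *Tac1* lay between 10.5 and 35 CPM and *Gal* between 1.6 and 27 CPM.

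Markers of other retinal cells were low but not even between retinas, and their part in the genotype comparisons below was not tested except where cells were left out. The 10 primary progenitor genes were all at least 2-fold below the rest and summed to 690 CPM over all amacrine cells (539 in *Sstr2*+/+, 932 and 740 in heterozygous, 501 and 746 in knockout retinas), led by *Dapl1* (182 CPM). The 10 proliferation genes, led by *Hmgb2*, summed to 224 CPM in the *Sstr2*+/+ retina, 530 and 369 in the *Sstr2*+/- and 322 and 329 in the knockout retinas. The *Sstr2*+/+ retina was thus lowest for cycling transcripts and the first heterozygous retina highest. The photoreceptor list summed to 412 CPM against 4483 in photoreceptors, led by *Neurod1* (290 CPM). The ganglion cell list summed to 374 CPM against 12015 in ganglion cells, and of its defining factors *Pou4f3* was at 0, *Pou4f2* had 3 UMIs and *Pou4f1* had 6. The other lists were at or near 0, with sums of 1.57 CPM for microglia (4 of 7 genes at 0), 1.57 for erythroid cells, 4.83 for astrocytes, 8.93 for pigment epithelium or lens (mostly *Dct*), 13.2 for bipolar cells (mostly *Prkca*) and 25.9 for vessels (mostly *Kdr*). The Muller glia list summed to 290 CPM against 802 in the rest. The 8 immediate early genes, which respond to stimulation and to tissue dissociation, summed to 756 CPM in the *Sstr2*+/+, 932 and 745 in the *Sstr2*+/- and 434 and 598 in the knockout retinas, led by *Fos*.

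Clustering of the 1013 cells gave 12 subclusters, numbered by size. The groups were found from the same counts, so their genes are a description with no test. The largest (176 cells) was led by the POU factor *Pou3f3* (96 CPM against 3.5 in the other amacrine cells), with *Lhx9* at 450 against 141. The second (160 cells) still carried *Hes5* (521 against 15.3), the proneural gene *Atoh7* (176 against 5.3) and the cyclin *Ccnd1* (700 against 60.5), together with *Ptf1a* at 528 and *Prdm13* at 644 CPM. It had no *Gad1* UMI and 11.6 CPM of *Tfap2a*, and its 4 marker genes summed to 323 CPM against 1622 in the other amacrine cells. The third (120 cells) was led by *Ablim1* (102 against 9.8) and *Enc1* (181 against 21.6), was high in *Zfhx3* (2033 CPM) and *Gbx2* (65.5 against 7.3) and nearly lacked *Tfap2b* (21.8 CPM).

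The fourth group (115 cells) was led by the chemokine *Cxcl12* (56.3 against 0.7) and *Tfap2e*, another AP-2 gene (194 against 21), and held *Crabp1* at 4080 against 669. The fifth (112 cells) was led by *Car8* (110 against 2.7) and *Synpr*, a synaptic vesicle gene (104 against 5.7), with *Rd3l* at 1038 against 183. The sixth (99 cells) was led by *Klhl35* (344 against 18.2) and *Igfbpl1* (452 against 45.2), and among its lower-ranked genes were *Nhlh2* (1180 against 200) and *Ebf1* (126 against 18.6), the last a factor known from glycinergic cells. This sixth group also had *Gad2* at 732 CPM. The seventh (79 cells) was led by *Adarb2*, of the RNA editing family (423 against 20.2), *Fezf2* (192 against 7.3), with *Npy* at 278 against 20.7 and *Tfap2b* at 2531 CPM. The ninth (42 cells) was led by the bZIP factor *Maf* (1267 against 19.1), with *Tac1*, the substance P gene, at 304 against 11, and the tenth (41 cells) by the nuclear receptors *Nr4a2* (834 against 36.8) and *Rxrg* (157 against 4.5), with *Gabra2* at 1028 against 83.6. The remaining 3 groups are described separately below, because their cells held more UMIs than the rest.

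**Figure D2:**
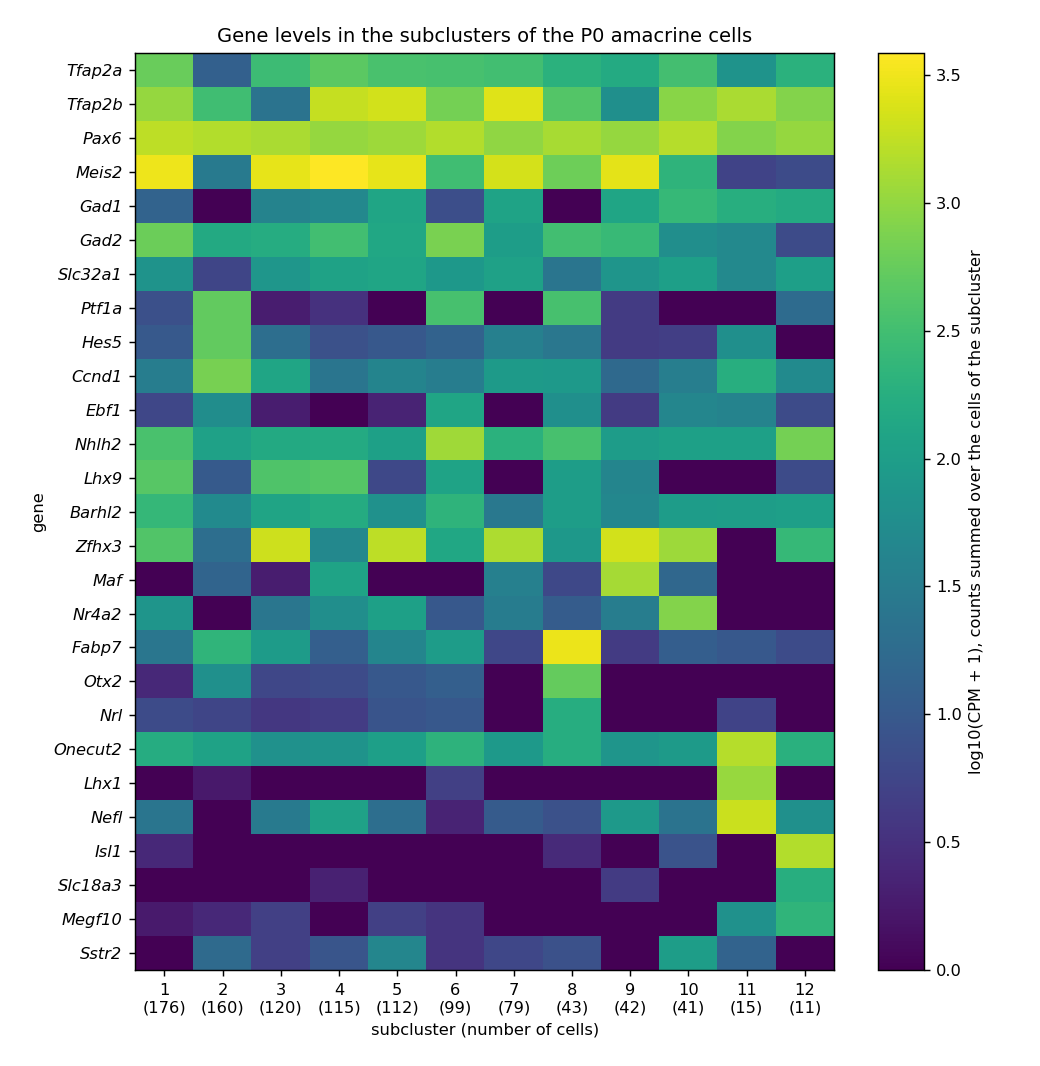
Heatmap of log10(CPM + 1) for 27 genes (rows) in the 12 amacrine subclusters (columns, with their cell numbers). Lhx1 fills the 15-cell group, Isl1 the 11-cell group and Otx2 the 43-cell group, while Pax6 is high in all 12.

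A set of 15 cells carried a horizontal cell program. The annotation has no horizontal cell class, and horizontal cells, the inhibitory interneurons of the outer retina, share *Ptf1a* descent, *Tfap2b* and GABA synthesis with amacrine cells. *Lhx1*, a LIM factor that defines horizontal cells among retinal neurons, was found in 15 of these 15 cells at 1063 CPM and in 2 of the other 998 cells (0.5 CPM). The Onecut factors were high, with *Onecut1* at 211 CPM against 3.1, *Onecut2* at 1520 against 120 and *Onecut3* at 237 against 0.5, as were *Prox1* (611 against 38.0), calbindin (*Calb1*, 90.4 against 2.4) and the neurofilament gene *Nefl* (1963 against 28.4). *Tfap2b* was detected in all 15 and *Gad1* in 13, whereas *Ptf1a* and *Zfhx3* gave no UMI and *Meis2* a single one. All 659 UMIs of *Pyy* lay in 8 of these cells, with 255 in 1 cell, so a gene that ranked among the leading amacrine genes was carried by 8 of 1013 cells. These cells had a median of 14125 UMIs against 7277 in the other amacrine cells, and their ganglion cell list summed to 4056 CPM, with *Nefl* itself a member. The same 15 cells formed 1 group at resolutions of 0.3, 0.5 and 1.0.

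The horizontal cell-like group made up 7 of 218 amacrine cells in the *Sstr2*+/+ retina (3.21%, 95% exact binomial interval 1.30 to 6.50%), 2 and 3 in the heterozygous retinas (1.25 and 1.29%) and 0 and 3 in the knockout retinas. The first knockout retina had none of 184 cells (exact upper bound 1.98%; a floor of 3 counts is 1.63%), and the second had 1.37%. The intervals overlapped for every pair of retinas, and they cover counting error only. By a rule that did not use the clusters, UMIs of at least 2 of *Lhx1*, *Onecut1*, *Onecut2* and *Onecut3*, 33 amacrine cells qualified, 5.50% in the *Sstr2*+/+ retina, 2.5 and 1.72% in the *Sstr2*+/- and 1.63 and 4.57% in the knockout retinas. The knockout mean lay 0.145 percentage points below that of the other retinas (exact permutation test over retinas, two-sided, p = 0.9, smallest possible 0.1). The direction was not stable. The difference was 0.986 points without the *Sstr2*+/+ retina and 1.32 without the first knockout retina. It was -0.961 points with at least 3 of the 4 genes and -1.06 in thinned cells. With every cell thinned to 3000 UMIs, for which 3 cells were too shallow, all in the first knockout retina, the shares became 4.13, 1.88, 1.29, 0 and 2.74%. That rule also took 12 of 85 ganglion cells (14.1%, median 24853 UMIs), 3.33% of photoreceptors, 1.2% of neurogenic and 0.179% of primary progenitors. Carrying all 4 genes was seen in 14 amacrine cells and in 0 cells of every other type.

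A group of 11 cells resembled starburst amacrine cells. All 11 had *Isl1*, at 1501 CPM against 0.6 in the other amacrine cells, and *Sox2*, at 641 against 26.4, while *Megf10*, which spaces starburst cells, was found in 10, *Slc18a3* in 9 (179 against 0.2 CPM), *Fezf1* in 8 (151 against 0) and *Chat*, which makes acetylcholine, in 3. The choline transporter *Slc5a7* gave no UMI in them. They also carried the peptide precursor genes *Scg2* (1316 against 10.5) and *Pnoc* (357 against 0.1). *Tfap2b* was found in all 11 and *Slc32a1* in 10, but *Gad2* in only 1, while *Gad1* was in 7. The cells numbered 2 in the *Sstr2*+/+ retina, 1 and 1 in the *Sstr2*+/- and 3 and 4 in the knockout retinas, or 0.917, 0.625, 0.431, 1.63 and 1.83%, and every interval overlapped every other. The ganglion cell list, of which *Isl1* is a member, summed to 2421 CPM in these cells against 329 in the other amacrine cells. The starburst list, which also holds *Isl1*, summed to 2705 against 33.3 CPM. Their median was 15309 UMIs against 7288 in the rest, and the same 11 cells grouped at all 3 resolutions.

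Another 43 cells combined amacrine and photoreceptor transcripts. *Otx2*, the factor that starts photoreceptor and bipolar fates, was found in 40 of them (546 CPM against 14.2 in the other amacrine cells), *Crx* in 36, *Nr2e3* in 23 (363 against 4.6) and *Nrl*, the rod factor, in 25 (171 against 4.3). *Fabp7*, a fatty acid binding protein gene, reached 3054 CPM against 69.8. The same cells had *Pax6* in 43 of 43, *Meis2* in 40, *Tfap2b* in 38 and *Ptf1a* in 35. Of the GABA genes they had *Gad2* in 33 (319 CPM against 294), *Slc32a1* in 11 and *Gad1* in none. They numbered 13 in the *Sstr2*+/+ retina, 6 and 9 in the *Sstr2*+/- and 8 and 7 in the knockout retinas, with a median of 11909 UMIs against 7237.5. No doublet caller was run, so 2 cells captured together and 1 cell with both programs were not told apart, and the group is left unnamed. The same 43 cells grouped at a resolution of 1.0, but at 0.3 they fell into a group of 144 cells, so results without them rest on the boundary at 0.5.

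The size of the amacrine class did not differ between genotypes beyond the spread of the retinas. Amacrine cells were 18.1% of the *Sstr2*+/+ cells (15.9 to 20.3%), 14.7% (12.7 to 17.0%) and 18.5% (16.4 to 20.8%) of the heterozygous cells and 18.1% (15.8 to 20.6%) and 19.2% (17.0 to 21.6%) of the knockout cells. The first heterozygous retina was lowest and the other 4 lay close together. The knockout mean of 18.6% was 1.55 percentage points above that of the other retinas (exact permutation test, two-sided, p = 0.5), and the slope was 0.539 points per knockout allele (exact permutation over 30 arrangements, p = 0.7). With 5 retinas the smallest p that the first of these tests can give is 0.1, so it could not pass 0.05. Of 32 subtype genes compared by the share of amacrine cells with a UMI after thinning, 7 separated the knockout from the other retinas, 4 above, among them *Fezf1*, *Isl1* and *Slc18a3*, and 3 below (*Neurod4*, *Slc6a5*, *Slc6a9*), beside 16.8% of all 15072 genes with a UMI, 7.7% above and 9.11% below. Without thinning 5 separated (2 above and 3 below), and at 2 or more UMIs 6 did (2 above and 4 below). The 16.8% belongs to the thinned setting with a UMI, and the share of all genes is not given for the other settings. None of the 32 passed, and the exact permutation test, which cannot give a p under 0.1, could not have passed one (smallest adjusted p 0.914). *Neurod4* was found in 19.3% of the *Sstr2*+/+, 25.6 and 21.6% of the heterozygous and 18.8 and 18.3% of the knockout cells.

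**Figure D3:**
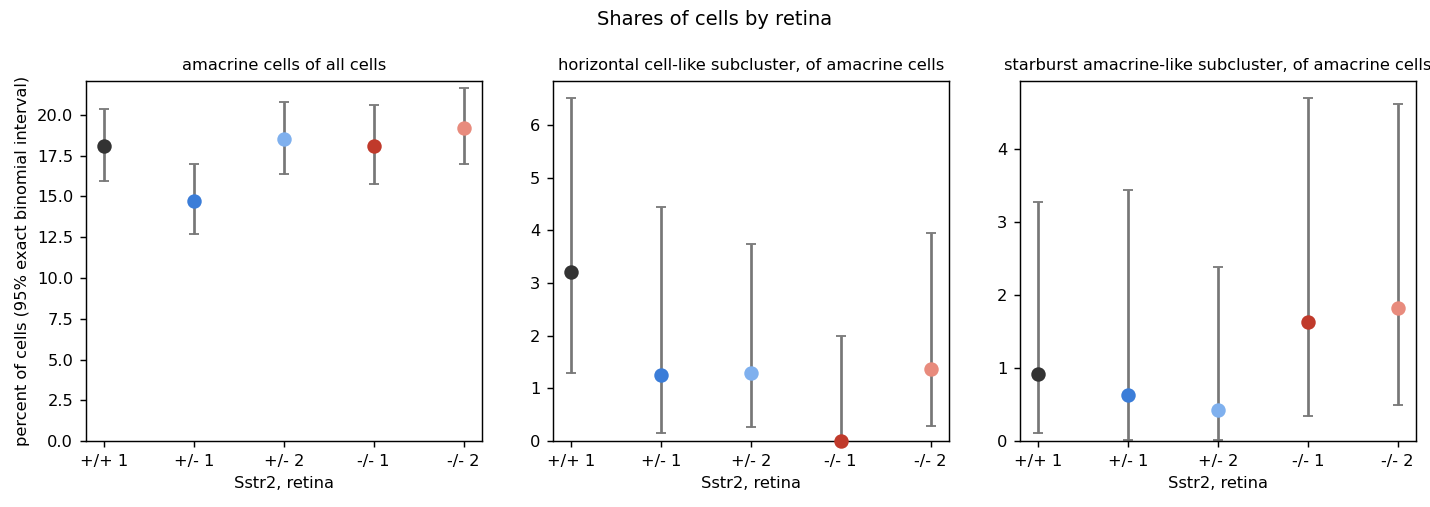
Share of amacrine cells among all cells (left), and of horizontal cell-like (middle) and starburst amacrine-like cells (right) among amacrine cells, in percent, for each retina with its 95% exact binomial interval. Amacrine shares run from 14.7 to 19.2%; the horizontal cell-like share is 0 in the first knockout retina and 3.21% in the Sstr2+/+ retina, with overlapping intervals.

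*Sstr2* itself (chromosome 11, 113619342 to 113626028) was scarce in amacrine cells, with 106 UMIs in 5.33% of the cells against 42.6% of neurogenic progenitors (median 6775 UMIs) and 1.29% of primary progenitors. The sum stood at 3.4 CPM in the *Sstr2*+/+ retina, 8.4 and 14.5 in the *Sstr2*+/- and 24.4 and 14.1 in the knockout retinas. In neurogenic progenitors it was at 112 CPM in the *Sstr2*+/+, 189 and 248 in the *Sstr2*+/- and 294 and 375 in the knockout retinas. The study reported raised *Sstr2* mRNA in knockout neurogenic progenitors by a test over cells. In amacrine cells, as there, the knockout retinas were not lower and the *Sstr2*+/+ retina was lowest. Where the deletion lies relative to the 3′ tags was not given, so these UMIs do not check the genotype labels. Knockout exceeded *Sstr2*+/+ by 2.45 on the log2 scale (SE 0.58, edgeR adjusted p = 0.463), and the trend was 1.01 per knockout allele (SE 0.25). *Sstr5* gave no UMI, and none of the 10 tested genes of the somatostatin receptor and Gi pathway list passed in any comparison.

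Comparing knockout with *Sstr2*+/+ amacrine cells, 1 gene passed, and it fell. Of 10373 genes tested in edgeR (quasi-likelihood, p adjusted by Benjamini-Hochberg), *Gm8797* was the call, so 0.00964% of all genes were called, while 427 genes (4.12%) had an unadjusted p under 0.05, 2.1% higher and 2.01% lower. DESeq2 also called 1 gene and limma 4. The count was not stable, at 19 and 14 without the first and second heterozygous retina, 48 and 62 without the first and second knockout retina, 65 with *Xist* status as a term and 54 without the filter on low counts. *Gm8797* (chromosome 3, 5750806 to 5751295) was at 277 CPM in the *Sstr2*+/+ retina, 458 and 227 in the *Sstr2*+/- and 14.2 and 23.1 in the knockout retinas, which were far below all others. The log2 fold change of knockout against *Sstr2*+/+ was -3.84 (SE 0.36, edgeR adjusted p = 0.000318). The low level was shared by every other cell type of the knockout retinas, for example 17.5 and 19.7 CPM in primary progenitors, against 221 CPM in the *Sstr2*+/+ retina.

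The call is uncertain as to its gene, because the annotated coding sequence of *Gm8797* is close to identical with a ubiquitin repeat of *Ubb*. The pair is shown so that the shared letters can be seen (GENCODE M21 transcripts, GRCm38), and capitals mark the bases that differ.
Gm8797, bases 99 to 326 of 490: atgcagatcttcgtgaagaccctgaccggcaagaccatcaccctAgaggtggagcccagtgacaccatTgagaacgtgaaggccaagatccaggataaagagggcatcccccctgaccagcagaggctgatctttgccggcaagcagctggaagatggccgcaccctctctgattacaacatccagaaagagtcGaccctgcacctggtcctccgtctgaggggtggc
Ubb, bases 660 to 887 of 1499: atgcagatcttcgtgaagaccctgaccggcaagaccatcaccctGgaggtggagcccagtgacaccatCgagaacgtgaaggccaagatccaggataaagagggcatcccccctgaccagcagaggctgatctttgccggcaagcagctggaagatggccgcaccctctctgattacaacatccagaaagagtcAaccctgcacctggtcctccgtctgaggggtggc
Over these 228 bases the 2 differ at 3 positions counted from 1 at the 5′ end, A45G, T69C and G195A with the *Gm8797* base first, which is an identity of 98.7%. The 3′ end of *Ubb*, bases 1116 to 1499, also matched bases 99 to 481 of *Gm8797*, over 384 bases at 98.2%. *Gm1821* matched over 392 bases at 98.7%. How the authors' counting placed reads that fit several copies was not examined here. *Ubb* itself lay at 3518 CPM in the *Sstr2*+/+, 3018 and 3123 in the *Sstr2*+/- and 3529 and 3664 in the knockout retinas, with a log2 fold change of 0.04 (edgeR adjusted p = 0.999).

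Other genes whose retinas separated knockout from *Sstr2*+/+ did not pass in the main fit. With 1 *Sstr2*+/+ retina such separation is common, at 30.5% of all genes for higher and 34.1% for lower, so it carries little by itself. The largest ratios upward were *Tsix* (the antisense of *Xist*, set by the second knockout retina), *Cdkn1c*, *Maf*, *Igfbp5* and *Mettl23*. *Cdkn1c*, a cell cycle inhibitor that is on in cells leaving the cycle, was at 72.3 CPM in the *Sstr2*+/+, 148 and 119 in the *Sstr2*+/- and 276 and 134 in the knockout retinas (log2 fold change 1.5, SE 0.31, edgeR adjusted p = 0.228). The largest downward after *Gm8797* were *Nefl*, *Rpl29*, *Hist1h4d* and *Tmem243*. *Rpl29*, a ribosomal protein gene with many near-identical copies and therefore uncertain, was at 1567 CPM in the *Sstr2*+/+, 869 and 850 in the *Sstr2*+/- and 230 and 901 in the knockout retinas, so the single *Sstr2*+/+ retina stood above the other 4 and the first knockout retina was lowest.

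*Nefl* followed the horizontal cell-like cells. It was at 140 CPM in the *Sstr2*+/+, 122 and 55.8 in the *Sstr2*+/- and 36.6 and 60.9 in the knockout retinas (log2 fold change -1.49, SE 0.33, edgeR adjusted p = 0.361). Inside the 15 cells it had 206, 140, 48, 0 and 62 UMIs in the 5 retinas and outside them 38, 35, 56, 54 and 46, so 66.6% of its UMIs came from 15 cells. Without that subcluster the log2 fold change was 0.45, the opposite sign. *Lhx1* had 98.4% of its 251 UMIs in these cells, with none in the first knockout retina. Of the 8 tested genes of the horizontal cell-like list, 0 passed, 5 were lower at an unadjusted p under 0.05 (2.01% of all genes), and the median log2 fold change was -0.97 beside 0.01 over all genes, with all 8 lower in both knockout retinas than in the *Sstr2*+/+ retina (34.1% of all genes). The same genes gave a median of -0.76 for heterozygous against *Sstr2*+/+, a comparison that shares the *Sstr2*+/+ retina, and -0.11 for knockout against heterozygous. The *Nefl* UMIs inside the group came from 7, 2, 3, 0 and 3 cells, so the second highest count, 140, was carried by 2 cells.

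Between knockout and heterozygous amacrine cells, the only comparison with 2 retinas on both sides, 4 genes passed, *Gm8797*, *Fabp7* and *Hes1* lower and *Isl1* higher (0.0386% of 10373 genes, with 445 or 4.29% at an unadjusted p under 0.05, 1.81% higher and 2.48% lower). DESeq2 called 3 genes and limma 2. Without the first or second heterozygous retina the count was 13 or 31, without the first or second knockout retina 52 or 67, and without the *Sstr2*+/+ retina 4. It was 69 with *Xist* status as a term and 59 without the filter on low counts. *Gm8797* had a log2 fold change of -4.14 (SE 0.32, edgeR adjusted p = 2.79e-05). *Isl1* (chromosome 13, 116298281 to 116309689) was at 32.1 CPM in the *Sstr2*+/+, 11.9 and 18.8 in the *Sstr2*+/- and 56.2 and 46.8 in the knockout retinas (log2 fold change 1.72, SE 0.24, edgeR adjusted p = 0.0143). The *Sstr2*+/+ retina lay between the other genotypes, so the order did not follow the number of knockout alleles. The 11 starburst amacrine-like cells held 98.2% of the 274 *Isl1* UMIs, with 54, 17, 34, 81 and 83 in the 5 retinas and 2, 0, 1, 2 and 0 outside them. The call therefore rests on 1 and 1 against 3 and 4 cells. DESeq2 gave *Isl1* an adjusted p of 0.200 and limma 0.063, and without these 11 cells the gene fell under the filter on low counts.

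*Fabp7* (chromosome 10, 57784881 to 57788450) was at 279 CPM in the *Sstr2*+/+, 348 and 416 in the *Sstr2*+/- and 211 and 160 in the knockout retinas, and the knockout retinas were below all others (log2 fold change against heterozygous -1.03, SE 0.13, edgeR adjusted p = 0.00494). The 43 cells with photoreceptor transcripts held 77.2% of its 2356 UMIs, 437, 361, 569, 235 and 217 in the 5 retinas against 50, 136, 207, 77 and 67 elsewhere. Without these cells the log2 fold change was -1.21 with an edgeR adjusted p of 0.0511, and without the 5% of cells with the most UMIs it was -0.71 with an adjusted p of 1.0. In photoreceptors, which carried far more of it, the knockout retinas lay between the heterozygous ones, at 3655 and 3857 CPM against 3283 in *Sstr2*+/+ and 2989 and 4021 in the *Sstr2*+/- retinas.

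*Hes1* (chromosome 16, 30064384 to 30067796), a Notch target that keeps progenitors undifferentiated, was at 17.8 CPM in the *Sstr2*+/+, 65.7 and 52.6 in the *Sstr2*+/- and 16.3 and 21.4 in the knockout retinas. The heterozygous retinas stood apart from both other genotypes (log2 fold change -1.61, SE 0.23, edgeR adjusted p = 0.0143, but 0.240 by DESeq2 and 0.358 by limma). Only 4.9% of its UMIs came from the photoreceptor-transcript cells, and it was found in 11, 21, 22, 13 and 16 cells of the 5 retinas. Primary progenitors held 727 to 891 CPM of it in the 5 retinas. The proliferation sum given above was highest in the same heterozygous retinas, and the progenitor sum was 932 and 740 CPM there and 746 in the second knockout retina. Their part in the call was not tested. Without the 5% of cells with the most UMIs the log2 fold change was -1.01 (edgeR adjusted p = 1.0). Among genes that did not pass, the largest rises without overlap (14.6% of all genes) were *Fam184a*, *Rph3a*, *Odf2*, *Igfbp5* and *Mrpl55*, all under 1.6-fold, and the largest falls (17.7%) were *Jun*, *Cldn5* and *Nefm*. *Jun*, an immediate early gene, was at 125 CPM in the *Sstr2*+/+, 171 and 101 in the *Sstr2*+/- and 52.2 and 79.5 in the knockout retinas (log2 fold change -1.0, SE 0.23, edgeR adjusted p = 0.392).

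**Figure D4:**
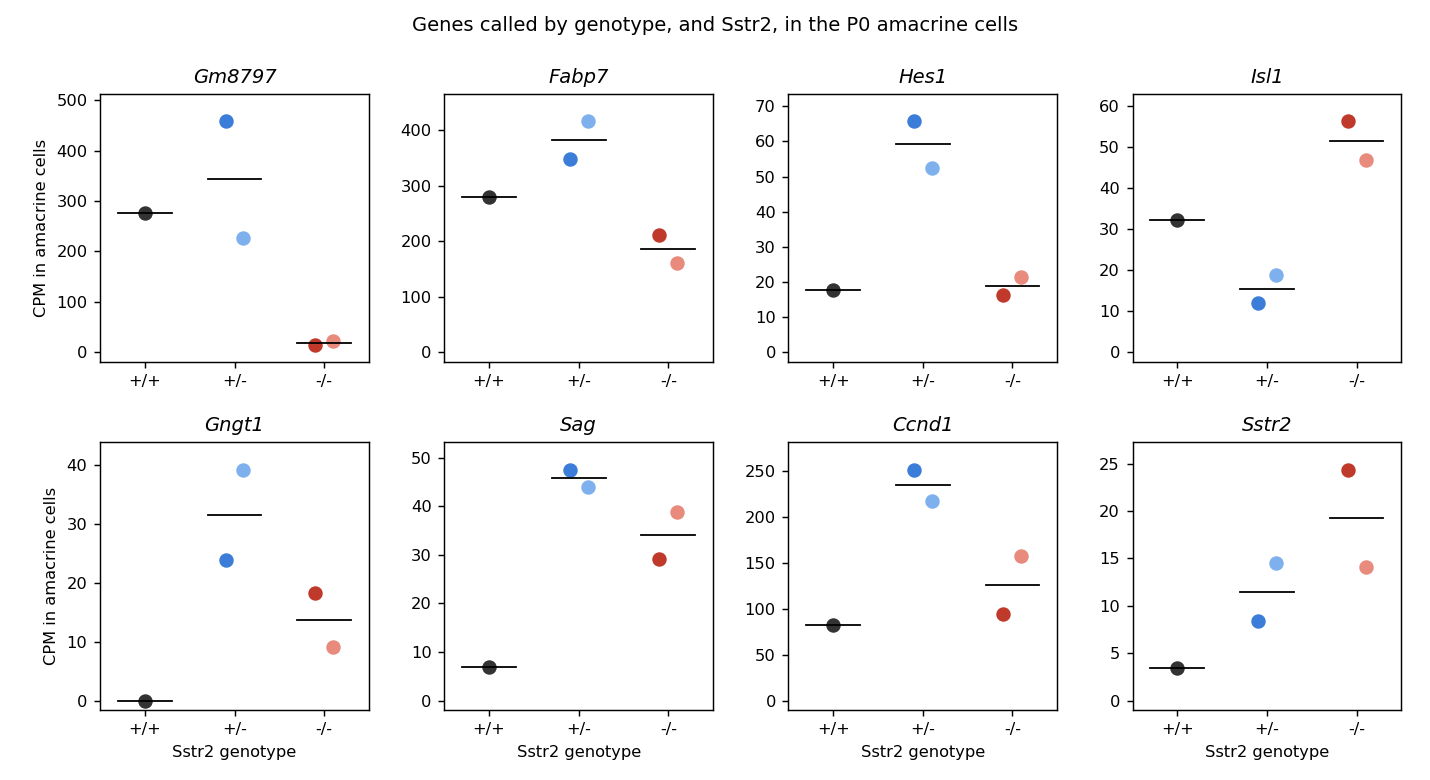
Level in CPM of the 7 genes past the threshold in any genotype comparison and of Sstr2, for each retina by genotype, with a line at the genotype mean. Gm8797 is at 14.2 and 23.1 CPM in the knockout retinas and above 200 in the others. For every other called gene (Fabp7, Hes1, Isl1, Gngt1, Sag and Ccnd1) the heterozygous retinas lie apart from both other genotypes, so the order does not follow allele number.

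Heterozygous exceeded *Sstr2*+/+ amacrine cells in 3 genes, and none was lower (0.0289% of 10373 genes, with 442 or 4.26% at an unadjusted p under 0.05, 2.6% higher and 1.66% lower). The count was 15 or 32 without the first or second heterozygous retina and 51 or 61 without the first or second knockout retina, 60 with *Xist* status as a term and 57 without the filter on low counts. The calls were a pair of photoreceptor genes and a cell cycle gene. *Gngt1*, a rod transducin subunit, had 0 UMIs in the *Sstr2*+/+ retina, 34 and 73 in the *Sstr2*+/- and 27 and 16 in the knockout retinas, so that the heterozygous mean of 31.5 CPM was at least 18.3-fold higher than the floor of 3 counts in the *Sstr2*+/+ library (edgeR adjusted p = 0.0119). *Sag*, rod arrestin, was at 6.9 CPM in the *Sstr2*+/+, 47.6 and 44.0 in the *Sstr2*+/- and 29.1 and 38.9 in the knockout retinas (log2 fold change 2.71, SE 0.36, edgeR adjusted p = 0.0119). Both genes were also on in photoreceptors, where *Gngt1* was at 253 CPM in the *Sstr2*+/+ 489 and 442 in the *Sstr2*+/- and 279 and 413 CPM in the knockout retinas. The *Sstr2*+/+ retina was also lowest for *Sag* in neurogenic progenitors, at 3.4 CPM against 18.4 and 12.2 in the *Sstr2*+/- and 6.9 and 7.9 in the knockout retinas, but not for *Gngt1* in primary progenitors, at 2.9, 6.9, 9.7, 1.8 and 3.8 CPM in the 5 retinas. The part of this level outside photoreceptors in the amacrine calls was not tested. *Ccnd1*, a cyclin of retinal progenitors, was at 82.1 CPM in the *Sstr2*+/+, 252 and 218 in the *Sstr2*+/- and 94.8 and 157 in the knockout retinas (log2 fold change 1.51, SE 0.23, edgeR adjusted p = 0.0443).

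None of the 3 calls held in every fit. DESeq2 called 0 genes here (52 at an unadjusted p under 0.05), with adjusted p of 0.446 for *Gngt1*, 0.127 for *Sag* and 1.0 for *Ccnd1*, while limma called 4. The photoreceptor-transcript cells held 71.3% of the 150 *Gngt1* UMIs and 49.3% of the *Sag* UMIs, and without them 0 genes passed in edgeR (410 at an unadjusted p under 0.05), with *Sag* at a log2 fold change of 2.11 (adjusted p = 0.355) and *Ccnd1* at 1.49 (adjusted p = 0.209), close to its value with them. Only 3.8% of the *Ccnd1* UMIs lay in those cells. *Ccnd1* was among the leading genes of the subcluster with *Hes5* and *Atoh7*, and cell cycle genes are given beside it, though their part in the call was not tested. Of 9 tested proliferation genes 0 passed, 5 were higher at an unadjusted p under 0.05 (2.6% of all genes), all 9 were higher in both heterozygous retinas than in *Sstr2*+/+ (33.3% of all genes), and the median log2 fold change was 1.40 beside 0.00 over all genes.

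Of genes that separated heterozygous from *Sstr2*+/+ without passing, the largest rises were *Cwc22*, a splicing factor gene (76.3 CPM in *Sstr2*+/+, 329 and 361 in heterozygous, 71.1 and 294 in knockout retinas), *Maf*, *Ldha* and *Hmgb2*, and the largest falls were *Tmem243*, *Rnf121*, *Rpl29*, *Prox1* and *Nefl* (33.0% of all genes). The knockout retinas were split for *Cwc22*, with the first at the *Sstr2*+/+ level. *Prox1*, a factor of horizontal and AII amacrine cells, was at 83.8 CPM in *Sstr2*+/+, 54.5 and 40.8 in heterozygous and 38.6 and 51.3 in knockout retinas (edgeR adjusted p = 0.601).

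**Figure D5:**
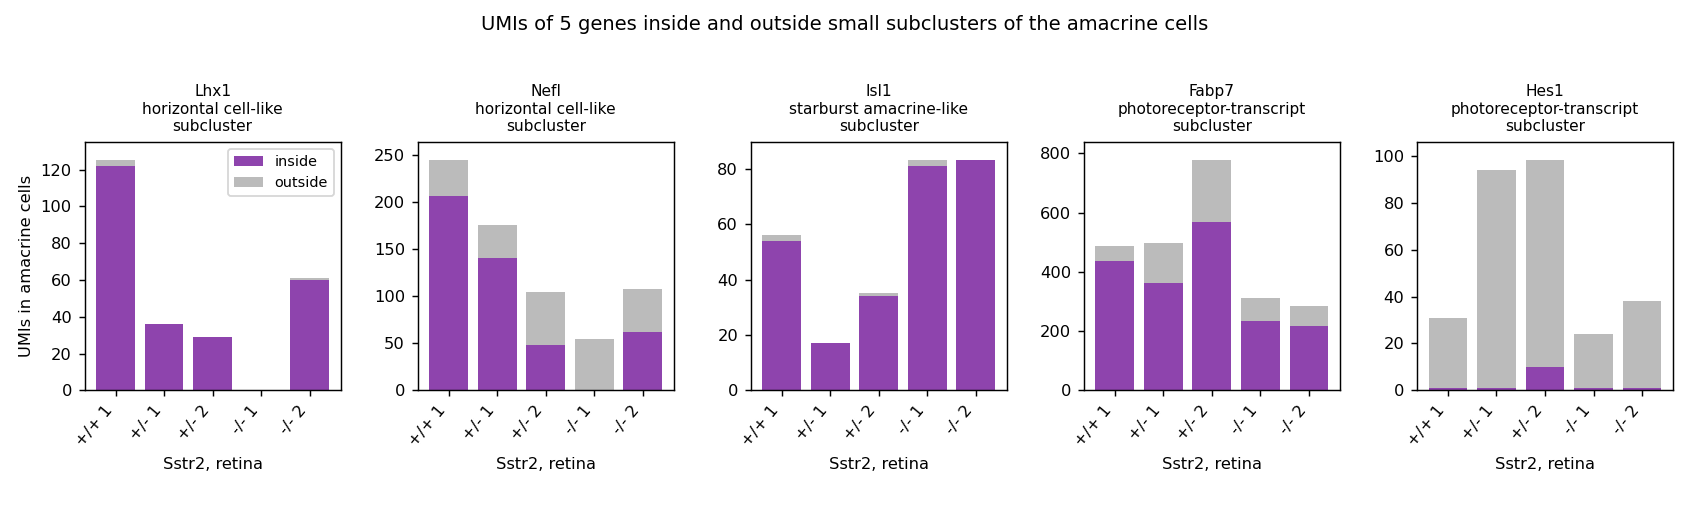
UMIs of 5 genes in each retina, stacked as those inside and those outside 1 subcluster (horizontal cell-like for Lhx1 and Nefl, starburst amacrine-like for Isl1, photoreceptor-transcript cells for Fabp7 and Hes1). Nearly all Lhx1 and Isl1 UMIs and 77.2% of Fabp7 UMIs lie inside, but 4.9% of Hes1 UMIs do.

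As a trend over 0, 1 and 2 knockout alleles, no gene passed in edgeR (0 of 10373, with 400 or 3.86% at an unadjusted p under 0.05), and DESeq2 and limma also called 0 (81 and 394 unadjusted). Leaving out 1 retina gave 4 calls without the *Sstr2*+/+, 0 without either heterozygous and 1 and 6 without the first and second knockout retina, while no filter on low counts gave 51 and *Xist* status as a term 3. A strict order of the 3 genotypes without overlap was seen upward for 2.52% and downward for 3.19% of all genes. The largest ordered rises were *Mettl23*, *Zfp157*, *Ppwd1*, *Tanc2* and *Ruvbl1*, and the largest ordered falls *Cep290*, *Neurod1*, *Sbf2*, *Acly* and *Cygb*. On chromosome 11, which also holds *Sstr2*, lay *Mettl23* (116843278 to 116854263), *Cygb* (116645595 to 116654313), *Tanc2* (105589986 to 105929304) and *Acly* (100476353 to 100528000). The other named genes lay on other chromosomes. Whether linkage to the *Sstr2* allele had a part in the order of the genes on chromosome 11 was not tested. *Neurod1*, a bHLH gene of photoreceptor and amacrine differentiation, was at 362 CPM in the *Sstr2*+/+, 255 and 321 in the *Sstr2*+/- and 253 and 247 in the knockout retinas (log2 change per allele -0.25, SE 0.06, edgeR adjusted p = 1.0). Every change in this set was under 0.4 on the log2 scale per allele.

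The genes that define the class did not pass. Of the 4 markers 0 passed in any comparison, and *Gad1* was lowest in the knockout retinas (log2 fold change against *Sstr2*+/+ -0.49, SE 0.19, edgeR adjusted p = 0.999). Of 27 tested fate factors, 0 passed for knockout against *Sstr2*+/+ (0.00964% of all genes, median log2 fold change of the list 0.04). For knockout against heterozygous 1, *Isl1*, passed (0.0386% of all genes, median of the list -0.13). The 6 GABA genes had medians of 0.08, 0.04 and -0.01 in the 3 pairwise comparisons, and 13 synapse genes had medians of 0.03, -0.01 and 0.11, with 0 calls in either list. For knockout against heterozygous the amacrine precursor list, which holds *Ptf1a* and *Prdm13*, had a median of -0.52 with 0 of 7 genes called and 6 lower without overlap (17.7% of all genes), and the 4 tested genes of the glycinergic list had a median of -0.90 with 0 called and 2 lower at an unadjusted p under 0.05 (2.48% of all genes). Against *Sstr2*+/+ the medians of these lists were -0.04 and 0.12. The 9 glutamate and 8 tested GABA and glycine receptor subunits had 0 calls. The immediate early list had 0 calls, with a median of -0.56 against *Sstr2*+/+ and -0.65 against heterozygous, where 6 of 8 genes were lower at an unadjusted p under 0.05 (2.48% of all genes). Of 11 genes that the study had selected in the neurogenic progenitors of these same retinas, which makes their direction no independent evidence, 1 was called in the knockout amacrine cells (*Gm8797*), beside 0.00964% of all genes against *Sstr2*+/+ and 0.0386% against heterozygous. At an unadjusted p under 0.05, 8 were higher and 2 lower than in *Sstr2*+/+ (2.1% and 2.01% of all genes, median of the list 0.71). For heterozygous against *Sstr2*+/+ 7 were higher and 0 lower (2.6% and 1.66% of all genes). These counts include the sex-linked *Xist* and *Tsix*, and the only *Sstr2*+/+ retina was *Xist*-low. Of the 6 sex-linked genes tested, 2 were higher at an unadjusted p under 0.05 in each of these comparisons with *Sstr2*+/+.

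Whether a knockout effect was particular to amacrine cells was tested as an interaction with all other cells of the same retinas, and 2 of 13166 genes passed (0.0152%, with 627 or 4.76% at an unadjusted p under 0.05). The count was 22 or 23 without the first or second heterozygous retina and 38 or 57 without the first or second knockout retina. *Atp1b1*, a subunit of the sodium pump (chromosome 1, 164437109 to 164458355), was at 103 CPM in the amacrine cells of the *Sstr2*+/+, 79.0 and 105 in the *Sstr2*+/- and 107 and 83.5 in the knockout retinas, while in the other cells it was at 5.1, 9.7, 9.5, 21.6 and 18 CPM. The log2 ratio of the folds was -2.03 (SE 0.28, edgeR adjusted p = 0.0139). The values of the other cells came mostly from ganglion cells, of which there were 13, 19, 12, 26 and 15 in the 5 retinas with 23, 67, 44, 146 and 121 UMIs of it, or 69.0, 133, 149, 205 and 270 CPM within these cells. Photoreceptors were at 6.9 CPM in the *Sstr2*+/+ and at 1.9 and 5.8 CPM in the knockout retinas. With ganglion cells left out of the other cells, which was decided once these values were known, the log2 ratio was -0.13 (SE 0.45, edgeR adjusted p = 1.0) and that of *Maf* 1.81 (adjusted p = 0.0128), and 3 genes passed. *Maf* (chromosome 8, 115682942 to 115707794) was at 27.5 CPM in the *Sstr2*+/+ amacrine cells, 81.8 and 85.8 in the *Sstr2*+/- and 86.7 and 55.8 in the knockout, and at 31.0, 31.9, 25.5, 27.9 and 17.6 CPM in the other cells. Its log2 ratio of folds was 1.85 (SE 0.27, edgeR adjusted p = 0.0148). *Maf* led the ninth subcluster, at 1267 CPM against 19.1 in the other amacrine cells and with a UMI in 26 of its 42 cells. This subcluster held 6 cells in the *Sstr2*+/+ retina, 8 and 7 in the *Sstr2*+/- and 11 and 10 in the knockout retinas. Its part in the *Maf* result was not tested.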

How the data were processed

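P0 retinas were dissociated, marked with MULTI-seq barcodes and captured with the 10x 3′ v3 chemistry. The processing notes name Cell Ranger 3.1.0, Seurat 3 and mm10, and the study assigned cells to samples with deMULTIplex. The authors deposited UMI counts that were not normalized, SCT values, which are the natural log of 1 plus a depth-corrected count, and metadata with genotype, sample and cell type. Cell filters were not stated in the sources used here. The members and gene lists were chosen with earlier results of these data known. The study calls the animals littermates, and the 2 samples of each replicated genotype differed in *Xist*, so they were not the same animal. The p-values measure the spread among these few samples.

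Counts of the amacrine cells were summed per retina over 17851 genes and tested with edgeR 4.0.16 (quasi-likelihood, TMM, filterByExpr, 3 genotypes in 1 fit, Benjamini-Hochberg over all genes tested, threshold 0.05) in R 4.3.3. DESeq2 1.42.0 and limma 3.58.1, on SCT values turned back to corrected counts and summed (log2 of CPM plus a pseudocount of 1), were alternatives. Genes were named when past the threshold, or when among the 5 largest rises or falls in CPM ratio without overlap at a mean of at least 50 CPM. On simulated counts with 200 genes changed 4-fold, edgeR recovered 85.0% for knockout against wild type and 88.0% against heterozygous. It recovered 82.5% for heterozygous against wild type (10373 genes each) and 57.0% for the interaction (13166 genes). In this order false calls numbered 12, 8, 9 and 4, and DESeq2 recovered 63, 73 and 58% in the pairwise comparisons. The simulated counts were drawn independently, without levels set by a few cells or correlation within a retina. The recovery is therefore not the power in the real sums. Subclusters came from scanpy 1.11.5 (2000 variable genes without sex-linked genes, 30 principal components, 15 neighbours, Leiden resolution 0.5, seed 0). They were called horizontal cell-like or starburst amacrine-like by listed markers. Some listed genes are not reported here. No doublet caller was run, and leaving out the 5% of cells with the most UMIs stood in for one. Intervals are 95% exact binomial (Clopper-Pearson).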

Additional observations from a re-analysis of the deposited data

Results flagged for a closer look

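Knockout effects in amacrine cells differed from those in all other cells for 2 genes, by the interaction test in edgeR. For *Atp1b1* the log2 ratio of folds was -2.03, with other cells at 21.6 and 18 CPM in the knockout retinas against 5.1 CPM in *Sstr2*+/+ and amacrine cells at 107 and 83.5 against 103 CPM. Ganglion cells held most UMIs of it among the other cells (146 and 121 in the knockout retinas, 23 in *Sstr2*+/+), and without them the log2 ratio was -0.13 (adjusted p = 1.0). For *Maf* it was 1.85, with a higher level in the amacrine cells of both knockout retinas (86.7 and 55.8 CPM) than in the single *Sstr2*+/+ retina (27.5 CPM). The heterozygous retinas were also high, at 81.8 and 85.8 CPM, and *Maf* led the ninth subcluster, whose part was not tested.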

How the results depend on the processing

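*Gm8797* stayed past the threshold in every alternative run (log2 fold change -4.45 to -3.55 against *Sstr2*+/+ and -4.58 to -3.55 against heterozygous). Counts of calls moved more, and the cause was not tested. With *Xist* status as a term they were 65 for knockout against *Sstr2*+/+, 69 for knockout against heterozygous, 60 for heterozygous against *Sstr2*+/+ and 3 per allele. Without the filter on low counts they were 54, 59, 57, 51 per allele and 66 for the interaction. Leaving out 1 retina at a time gave 14 to 62, 4 to 67, 15 to 61, 0 to 6 and 22 to 57. Limma called 4 for knockout against *Sstr2*+/+ and 2 against heterozygous, and DESeq2 called 0 for heterozygous against *Sstr2*+/+. Without the 5% of cells with the most UMIs the counts were 2 for knockout against heterozygous, 0 for heterozygous against *Sstr2*+/+ and 1 per allele. Without the cells with at least 2 horizontal cell genes, knockout against *Sstr2*+/+ had 2 calls. Leaving out subclusters was chosen after the data were seen. Without the photoreceptor-transcript cells, knockout against heterozygous had 1 call and heterozygous against *Sstr2*+/+ had 0, and without the horizontal cell-like group, knockout against *Sstr2*+/+ had 3 and heterozygous against *Sstr2*+/+ had 11. *Nefl* changed sign without the cells with 2 horizontal cell genes (0.41 for knockout and 0.27 for heterozygous against *Sstr2*+/+) and without the horizontal cell-like group (0.45 and 0.29). The slope of the amacrine share per allele was -0.0101 points with progenitors left out of the total. Leaving out 1 retina gave 0.00667 to 2.03 points for that slope, 0.362 to 2.25 for the knockout difference, -1.61 to 1.32 for the share of cells with 2 horizontal cell genes (0.986 without the *Sstr2*+/+ retina) and 9 to 14 subtype genes without overlap. The share of all genes without overlap is not given for these subtype counts. Fewer retinas separate more easily, so the counts are not read against the 7 with all retinas. Of 651 values of 46 named gene comparisons, 512 kept direction and side of the threshold, 112 newly passed, 23 no longer passed and 4 reversed. With *Xist* status as a term, 20 of these comparisons newly passed and 24 were the same. Without the filter on low counts, 24 newly passed and 22 were the same. No paired analysis was possible because each retina carries its own barcode number and none is shared between the genotypes compared. The interaction fit had a term for each retina, since amacrine and other cells came from the same ones. At this depth, genes under the count filter and subtypes of a few cells per retina could not be compared.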

Other observations

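Amacrine cells of the explant library (1372 cells) and of the P14 library (68 cells) were not tested against those of P0, because each age or culture is a separate library. *Tfap2b* was at 1048 CPM in explant, 987 in P0 and 1066 in P14 amacrine cells. In the same order, and chosen after their values were seen, *Gad1* was at 58.6, 54.9 and 175 CPM, *Slc32a1* at 53.3, 72.8 and 180, *Snap25* at 93.3, 140 and 1962 and the glycine transporter *Slc6a9* at 4.5, 6.0 and 68.7. The early factor *Prdm13* was at 312, 208 and 23.3 CPM. *Lhx1*, the horizontal cell factor, was at 0.3, 30.3 and 376 CPM in the cells called amacrine. These are pooled values, and the 68 P14 cells came from 5 samples that differed widely. By P14 sample the levels ran from 543 to 1638 CPM for *Tfap2b*, 45.1 to 314 for *Gad1* and 120 to 238 for *Slc32a1*. They ran from 1022 to 2525 CPM for *Snap25*, 0 to 393 for *Slc6a9*, 0 to 54.2 for *Prdm13* and 0 to 842 for *Lhx1*.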
